A study of Mus musculus with 8 samples.

Results

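The transcripts of 7 genes of the Wnt signalling pathway were followed in RNA pulled down from the embryonic mouse cortex. They were the ligands Wnt7a, Wnt7b and Wnt8b, the signal transducer Ctnnb1, its DNA-binding partners Lef1 and Tcf7l2, and the feedback inhibitor Axin2. They were selected by Ensembl gene ID from a list of 7, and all 7 were found among the 54838 gene IDs counted and among the 16716 with enough reads to be tested. Cells dissociated from the cortex of C57BL/6 embryos at embryonic day 12.5 were lysed for RNA immunoprecipitation sequencing (RIP-seq). This assay pulls a protein down with an antibody and sequences the RNA that comes with it. In 4 libraries the antibody was a rabbit antibody against Exosc10, a 3′-to-5′ exoribonuclease of the nuclear RNA exosome. In the other 4 it was normal rabbit IgG, a mock pull-down that measures RNA captured without the specific antibody. The labels name no mutation or drug in either group. Whether libraries of one group stem from separate litters is not stated, and the p-values reflect the spread among these libraries, which may be technical.

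Secreted Wnt proteins bind Frizzled receptors with Lrp5 or Lrp6 at the cell surface. In the absence of a ligand, a destruction complex built on the Axin scaffolds marks β-catenin, the product of Ctnnb1, for degradation. When a ligand is bound, β-catenin accumulates, enters the nucleus and activates genes together with the TCF/LEF family of DNA-binding proteins. In the early cortex the pathway is known for keeping radial glial progenitors dividing and for the patterning of the medial wall, from which the hippocampus arises.

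The comparison asked which of these transcripts made up a larger or smaller share of the RNA that came down with Exosc10 than of the RNA in the mock pull-down. Wnt7a, Wnt7b, Ctnnb1 and Axin2 took a larger share, by 1.59-fold to 1.97-fold, and Lef1 took a smaller one, by 1.67-fold. Tcf7l2 was lower in each Exosc10 library than in any IgG library without passing the test, and Wnt8b overlapped between the groups. Axin2 overlapped as well, through IgG library 1. Under 18 other ways of processing, among them leaving out each library in turn, the call was lost in 8 for Axin2, in 3 for Lef1 and in 1 for Ctnnb1. Except under other scalings for Axin2, these calls were lost on leaving out a library not numbered 1. Those fits called 5.2% to 8.08% of all tested genes in either direction, against 13.7% with all libraries. A call lost there is therefore not particular to these transcripts. With all libraries, 4 of the 7 transcripts were higher and 1 was lower by the quasi-likelihood test of edgeR with a threshold of 0.05 on the adjusted p, which called 7.92% of all tested genes higher and 5.82% lower. The median log2 fold change, Exosc10 over IgG, was 0.67 for the 7 transcripts and -0.03 for all tested genes. Single values of the 7 ran from -0.74 to 0.98. Abundant genes were called higher more often: in the deciles of mean level in which these 7 lie, 12.7% to 15.4% of genes were higher. In the lower direction these deciles, with 5.86% to 7.12%, lay near or slightly above all tested genes. The median log2 fold changes of these deciles ran from 0.05 to 0.10.

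Levels are given as CPM, the reads of a gene scaled to a common library total, with library totals corrected by TMM scaling, which trims genes of extreme ratio or abundance. A CPM value is a share of its pull-down. A higher value therefore does not show that more of an RNA was recovered. Input RNA was not analysed here, so the RNA content of the cells and its recovery cannot be told apart, nor can fewer cells of a type and less RNA per cell. CPM is not corrected for transcript length, so levels were compared between pull-downs and not between genes. The Exosc10 libraries held 21731971 to 34506709 counted reads each, and the IgG libraries 20967743 to 30199449. The libraries numbered 1 were the shallowest of each group, and each fold change below is also given without them. Without them edgeR called 32.2% of all tested genes in either direction, against 13.7% with all libraries. A smaller adjusted p without them is therefore not particular to these transcripts. The lowest count of any of the 7 transcripts in a library was 679, where counting alone gives a relative error of 3.84%. The spread between libraries of a group was wider than the counting error for each transcript, from 4.31% for Ctnnb1 with Exosc10 to 26.9% for Axin2 with IgG. The tissue label was not checked against cell type markers, since the files pair IDs with no symbols and no other gene was looked up.

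**Figure D1:**
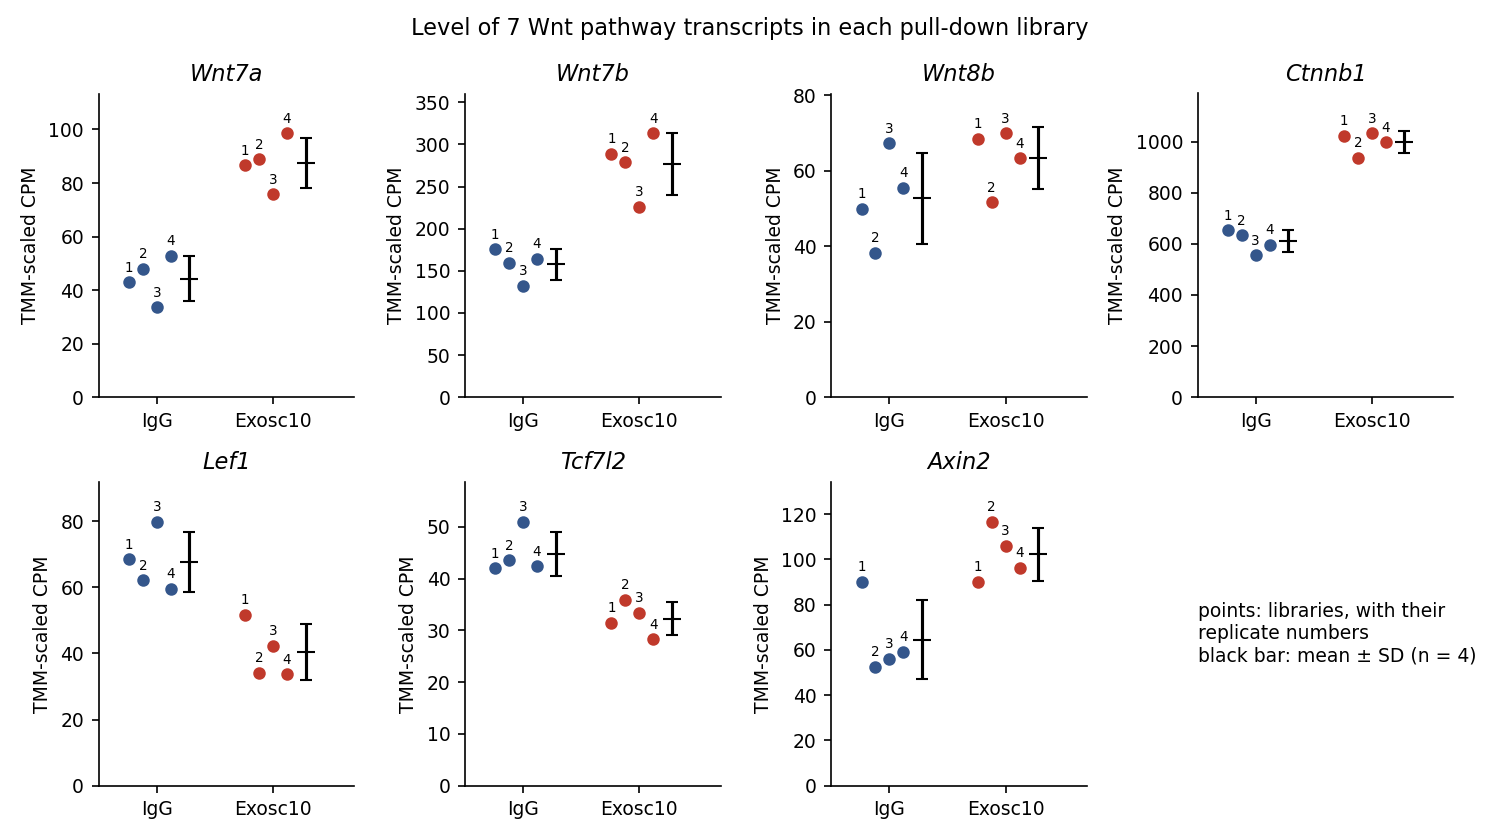
TMM-scaled CPM (vertical axes, from 0) of each transcript in the 4 IgG (blue) and 4 Exosc10 (red) libraries, numbered by replicate, with the group mean ± SD beside the points. The groups do not overlap for Wnt7a, Wnt7b, Ctnnb1, Lef1 and Tcf7l2, and they overlap for Wnt8b and, through IgG library 1, for Axin2.

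Wnt7a (ENSMUSG00000030093) encodes a ligand made by cortical progenitors that also directs the growth of blood vessels into the brain. Its gene lies on chromosome 6 at 91363981 to 91411353, on the minus strand (RefSeq, GRCm38.p6, the assembly of the build mm10 that the submitters' processing notes name). It was counted at 86.6, 89.0, 75.8 and 98.6 CPM in Exosc10 libraries 1 to 4 and at 42.9, 47.9, 33.5 and 52.9 CPM in IgG libraries 1 to 4. The lowest Exosc10 library lay well above the highest IgG library. The Exosc10 mean was 87.5 ± 9.4 CPM against an IgG mean of 44.3 ± 8.3 CPM (SD, n = 4 each). On the log2 scale the fold change was 0.98 ± 0.18 (SE), its 95% interval ran from 0.60 to 1.37, and the edgeR adjusted p was 0.00455. This was the largest difference among the 7, and 96.7% of all tested genes had a lower log2 fold change. It was 0.97 without both libraries numbered 1 (edgeR adjusted p = 0.000642).

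Wnt7b (ENSMUSG00000022382) is the close paralogue of Wnt7a and acts with it in vessel growth. Its gene lies on chromosome 15 at 85535437 to 85581821. Its level was 288.8, 278.8, 226.0 and 313.5 CPM in Exosc10 libraries 1 to 4 and 175.4, 159.5, 132.3 and 164.3 CPM in IgG libraries 1 to 4. Again no IgG library reached the lowest Exosc10 library, and library 3 was the lowest of each group, as it was for Wnt7a. The means were 277 ± 36.9 and 158 ± 18.3 CPM (SD, n = 4 each), and the log2 difference came to 0.81 ± 0.18 (SE) with an interval of 0.43 to 1.19 (edgeR adjusted p = 0.0102). Without both libraries numbered 1 it was 0.84 (edgeR adjusted p = 0.000762). The files do not say how reads that map to both paralogues were counted, so part of either count could belong to the other.

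Wnt8b (ENSMUSG00000036961) is a ligand whose expression in the telencephalon is known from the medial wall. Its gene lies on chromosome 19 at 44493472 to 44514273, on the plus strand. It stood at 68.5, 51.6, 69.9 and 63.4 CPM in Exosc10 libraries 1 to 4 and at 49.9, 38.3, 67.3 and 55.5 CPM in IgG libraries 1 to 4. The groups overlapped widely, and in each of them library 2 was the lowest and library 3 the highest. The means were 63.4 ± 8.3 and 52.7 ± 12.05 CPM (SD, n = 4 each). The log2 fold change was 0.26 ± 0.19 (SE), with an interval of -0.15 to 0.68 that spans a 1.60-fold higher share as well as no difference (edgeR adjusted p = 0.375). It was 0.20 without both libraries numbered 1 (edgeR adjusted p = 0.445).

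Ctnnb1 (ENSMUSG00000006932) encodes β-catenin, which carries the signal to the nucleus and also links cadherins to the actin cytoskeleton. Its gene lies on chromosome 9 at 120933400 to 120960507, on the plus strand. It was the most deeply counted of the 7 transcripts, with 13482 to 34110 reads a library. The levels were 1023, 938, 1034 and 998 CPM in Exosc10 libraries 1 to 4 and 654, 634, 557 and 598 CPM in IgG libraries 1 to 4. The libraries of a group lay close together and far from those of the other group. The means were 998 ± 43.1 and 611 ± 42.9 CPM (SD, n = 4 each), and the log2 difference came to 0.71 ± 0.16 (SE) with an interval of 0.36 to 1.06 (edgeR adjusted p = 0.0132). The call was narrowly lost without IgG library 4, at a log2 fold change of 0.70 (edgeR adjusted p = 0.0514), where 6.19% of all genes were called in either direction. The call held at 0.73 without both libraries numbered 1 (edgeR adjusted p = 0.000705).

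Lef1 and Tcf7l2 encode TCF/LEF proteins, which bind DNA through a high-mobility-group domain and recruit β-catenin. Lef1 (ENSMUSG00000027985), on chromosome 3 at 131110297 to 131224357 (plus strand), was the one transcript of the 7 that was called lower. It stood at 51.7, 34.1, 42.3 and 33.8 CPM in Exosc10 libraries 1 to 4 and at 68.5, 62.2, 79.9 and 59.5 CPM in IgG libraries 1 to 4. Every Exosc10 library lay below every IgG library, with Exosc10 library 1 the nearest to them. The means were 40.5 ± 8.5 and 67.5 ± 9.1 CPM (SD, n = 4 each), and the log2 difference came to -0.74 ± 0.19 (SE) with an interval of -1.14 to -0.34 (edgeR adjusted p = 0.0200). The call was lost without Exosc10 library 2 (-0.66, edgeR adjusted p = 0.0808), Exosc10 library 4 (-0.66, edgeR adjusted p = 0.0801) or IgG library 3 (-0.65, edgeR adjusted p = 0.0716). In these fits 5.51%, 5.2% and 5.28% of all genes were called in either direction. Without both libraries numbered 1 the log2 fold change of Lef1 was -0.87 (edgeR adjusted p = 0.000641).

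Tcf7l2 (ENSMUSG00000024985), on chromosome 19 at 55741797 to 55933659 (plus strand), was counted at 31.5, 35.9, 33.4 and 28.3 CPM in Exosc10 libraries 1 to 4 and at 42.0, 43.5, 51.0 and 42.3 CPM in IgG libraries 1 to 4. The groups did not overlap. The means were 32.3 ± 3.2 and 44.7 ± 4.2 CPM (SD, n = 4 each), and the log2 difference of -0.47 ± 0.16 (SE), whose interval ran from -0.81 to -0.13, missed the threshold after adjustment over all genes (edgeR adjusted p = 0.0650). It passed without IgG library 1 (-0.49, edgeR adjusted p = 0.0379), where 10.7% of all genes were lower and 13% higher. Without both libraries numbered 1 it passed too (-0.49, edgeR adjusted p = 0.0173), where 15.1% of all genes were lower and 17.1% higher. It also passed with DESeq2 (-0.47, adjusted p = 0.0269), which called 9.87% of all genes lower, and with limma-voom (-0.44, adjusted p = 0.0140), which called 18% lower. Scaling by the upper quartile, which called 8.19% of all genes lower, also gave a pass (-0.55, edgeR adjusted p = 0.0363). So did testing only genes with a mean of at least 5 CPM (-0.52, edgeR adjusted p = 0.0351), where 9.93% were lower. In 11 of the 18 alternatives Tcf7l2 missed the threshold. The highest edgeR adjusted p, 0.201, came without Exosc10 library 4, where 5.2% of all genes were called in either direction.

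Axin2 (ENSMUSG00000000142) encodes a scaffold of the destruction complex and is itself transcribed when the pathway is active, which makes it a negative feedback regulator and a widely used readout. Its gene lies on chromosome 11 at 108917828 to 108950783, on the plus strand. Its level was 90.1, 116.7, 106.1 and 96.2 CPM in Exosc10 libraries 1 to 4 and 90.2, 52.5, 56.1 and 59.1 CPM in IgG libraries 1 to 4. IgG library 1 lay level with the lowest Exosc10 library, which was Exosc10 library 1, and the remaining IgG libraries lay far below. The means were 102 ± 11.6 and 64.5 ± 17.4 CPM (SD, n = 4 each), and the log2 difference came to 0.67 ± 0.20 (SE) with an interval of 0.25 to 1.08 (edgeR adjusted p = 0.0374). Without IgG library 1 it was 0.88 (edgeR adjusted p = 0.00274), and without both libraries numbered 1 it was 0.93 (edgeR adjusted p = 0.000126). The call was the least firm of the 5. It was lost without Exosc10 library 2 (0.60, edgeR adjusted p = 0.117), 3 (0.65, edgeR adjusted p = 0.0779) or 4 (0.70, edgeR adjusted p = 0.0801), and without IgG library 2 (0.58, edgeR adjusted p = 0.105), 3 (0.61, edgeR adjusted p = 0.109) or 4 (0.63, edgeR adjusted p = 0.111). It was also lost with scaling by the upper quartile (0.59, edgeR adjusted p = 0.0575) and by library totals (0.64, edgeR adjusted p = 0.0599). The fits without 1 of those libraries called 5.2% to 8.08% of all genes in either direction, against 13.7% with all libraries. Scaling by the upper quartile called 14.3%, and scaling by library totals 12.6%.

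**Figure D2:**
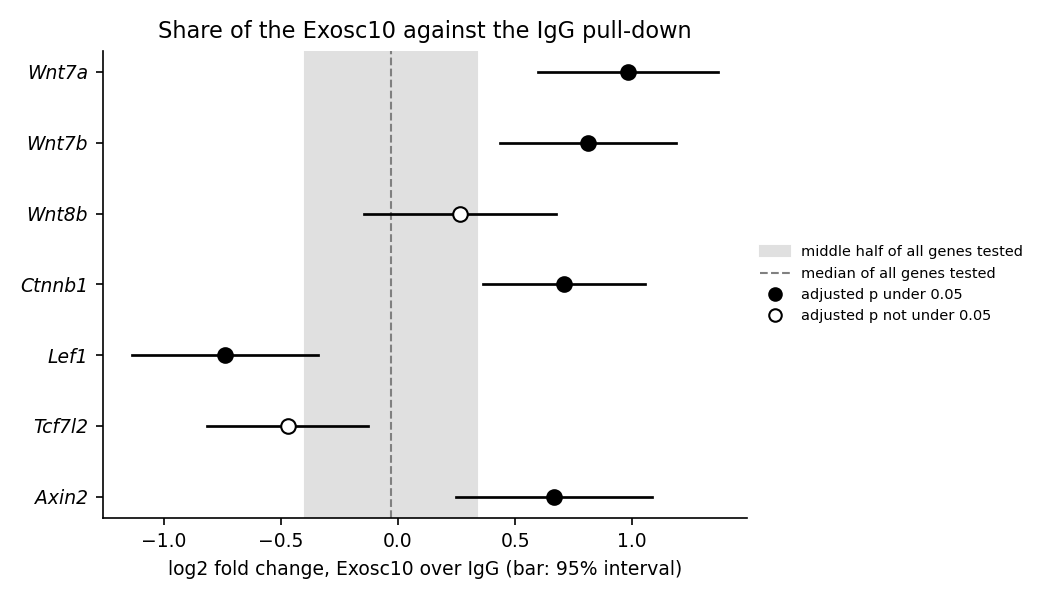
Log2 fold change, Exosc10 over IgG (horizontal axis), of each transcript with its 95% interval, filled where the edgeR adjusted p was under 0.05; the grey band runs from the lower to the upper quartile of all 16716 tested genes, -0.40 to 0.34, and the dashed line their median. Wnt7a, Wnt7b, Ctnnb1 and Axin2 lie to the right of the band, Lef1 and Tcf7l2 to its left, and Wnt8b inside it.

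Over the 7 transcripts, 3 were higher and 2 lower without overlap between the groups. Over all tested genes the groups did not overlap in 10.6% in the higher direction and in 8.45% in the lower direction. The sizes were ordinary for called genes. The 1324 genes called higher had a median log2 fold change of 0.84, and of the 4 transcripts called higher only Wnt7a lay above it. It was -0.85 among the 973 genes called lower, and Lef1, at -0.74, lay nearer to 0.

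**Figure D3:**
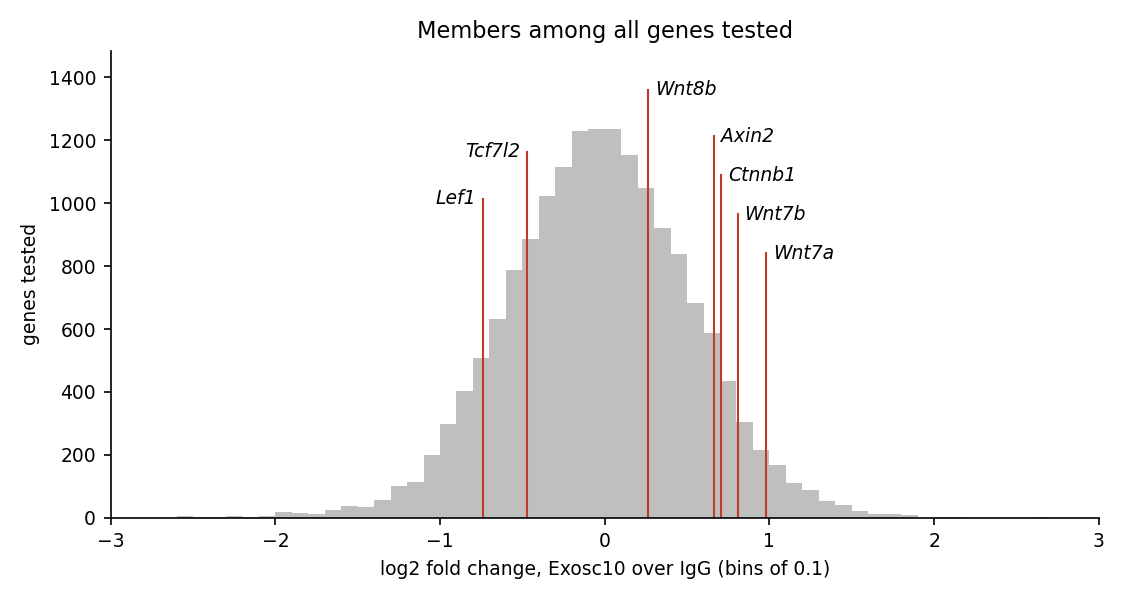
Number of tested genes (vertical axis) by log2 fold change, Exosc10 over IgG (horizontal axis, bins of 0.1, shown from -3 to 3), with red lines at the values of the 7 transcripts, whose heights carry no meaning. Wnt7a, at 0.98, lies in the upper flank and Lef1, at -0.74, in the lower flank of one continuous distribution.

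Ratios of 2 transcripts within a library do not depend on how libraries are scaled, and they show which transcripts shifted relative to each other. All 21 pairs of the 7 transcripts were tested by exact permutation of the group labels (two-sided, 70 assignments), which can give no p below 0.0286. In 10 pairs the ratios did not overlap between the pull-downs, each with p = 0.0286 by exact permutation, and these were the 10 pairs that set Lef1 or Tcf7l2 against one of the other 5 transcripts. After adjustment over the 21 pairs each had a permutation p of 0.060, so 0 pairs passed 0.05, while 10 did at an unadjusted p under 0.05. Lef1 and Tcf7l2 were set apart by their lower levels in these same libraries. Of all tested genes taken singly, 19.1% did not overlap between the groups, in either direction. The share among pairs of other genes was not examined. The pairs share members and are not independent of one another or of the fold changes above. The levels of Wnt7a, Wnt7b and Ctnnb1 already lay apart in the opposite direction from those of Lef1 and Tcf7l2. Their ratios to Lef1 and Tcf7l2 therefore had to lie apart, with an exact permutation p of 0.0286, and add no further evidence.

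The log2 ratio of Ctnnb1 to Lef1 counts had a mean of 4.64 ± 0.25 in the Exosc10 libraries and 3.18 ± 0.26 in the IgG libraries (SD, n = 4 each). It ranged from 4.30 to 4.88 with Exosc10 and from 2.80 to 3.35 with IgG, so that β-catenin transcripts were 2.75-fold more frequent relative to Lef1 in the Exosc10 pull-down. For Ctnnb1 to Tcf7l2 the ranges were 4.71 to 5.14 and 3.45 to 3.96, a 2.27-fold difference. The mean difference was largest for Wnt7a to Lef1, at 1.75 or 3.35-fold, with ranges of 0.74 to 1.55 with Exosc10 and -1.25 to -0.17 with IgG. Wnt8b was not called on its own. Its ratio to Lef1 did not overlap between the groups, with a mean difference of 1.03 (0.40 to 0.91 with Exosc10 and -0.70 to -0.10 with IgG). Its ratio to Tcf7l2 did not overlap either, with a mean difference of 0.75 (0.52 to 1.16 and -0.18 to 0.40). After adjustment over the pairs both had an exact permutation p of 0.060. These ratios, and those of Axin2, contain the lower Lef1 or Tcf7l2 levels again. They are no separate evidence about Wnt8b or Axin2.

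**Figure D4:**
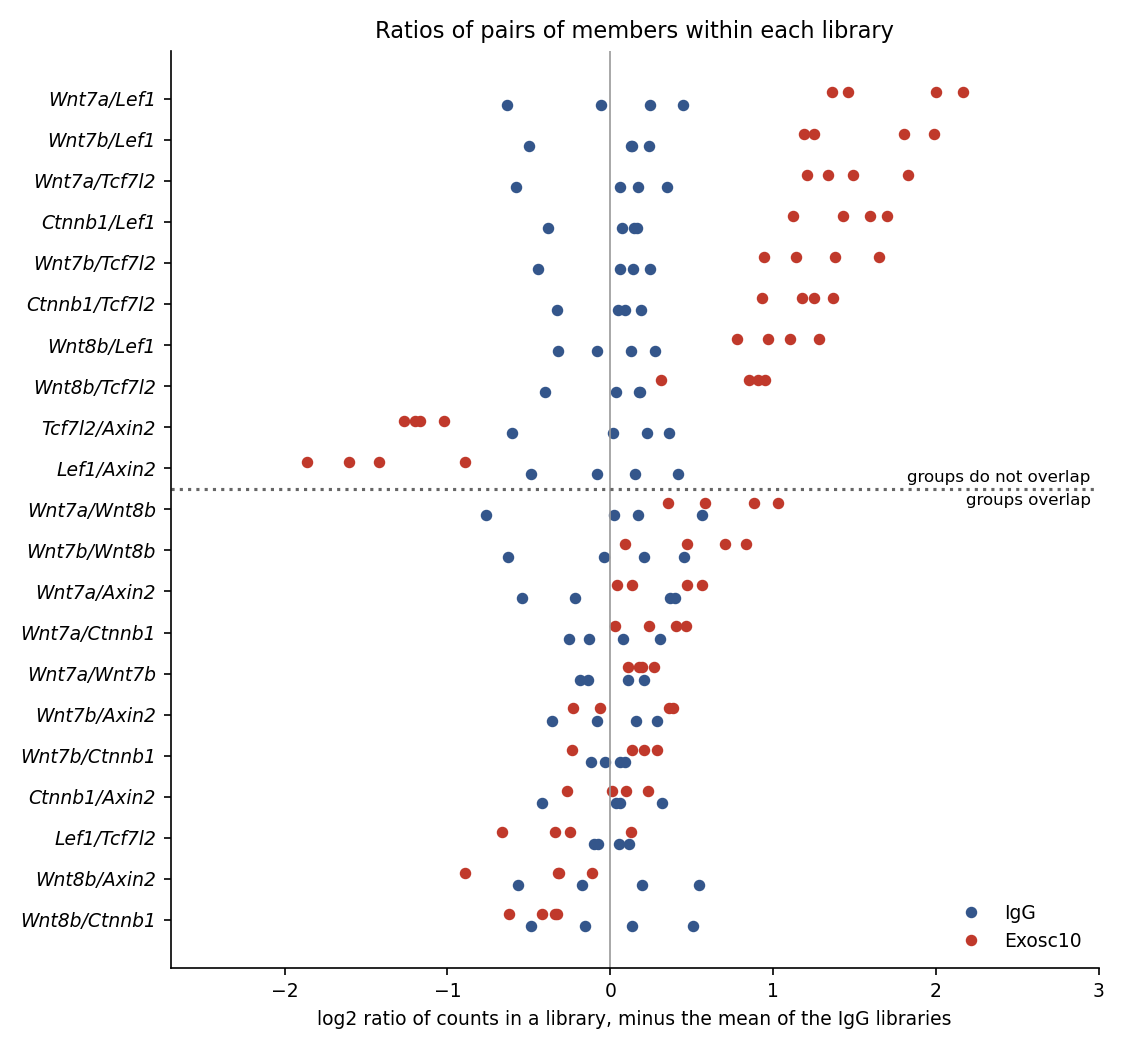
Log2 ratio of the counts of 2 transcripts in each library, less the mean of the IgG libraries (horizontal axis), for the 21 pairs, with Exosc10 libraries in red and IgG libraries in blue. The 10 pairs above the dotted line, each with Lef1 or Tcf7l2 on one side only, do not overlap between the groups, and the 11 below it do.

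Within the remaining 11 pairs the pull-downs overlapped. The ratio of the paralogues Wnt7a and Wnt7b had a mean log2 value of -1.66 ± 0.07 with Exosc10 and -1.84 ± 0.19 with IgG (SD, n = 4 each), a difference of 0.19 (exact permutation p = 0.200, adjusted over the pairs 0.263). The ratio of Ctnnb1 to Axin2 differed by 0.02 (exact permutation p = 0.914, adjusted 0.914), and that of Lef1 to Tcf7l2 by -0.28 (exact permutation p = 0.171, adjusted 0.240). The ligands were not shown to differ from one another: the ratio of Wnt7a to Wnt8b was higher with Exosc10 by 0.71 (exact permutation p = 0.0571, adjusted 0.109) and that of Wnt7b to Wnt8b by 0.52 (exact permutation p = 0.114, adjusted 0.185). These p-values do not show that such pairs shifted alike.

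The libraries of a group also differed in which Wnt transcripts they held. IgG library 3 had the highest Wnt8b, Lef1 and Tcf7l2 levels of its group and the lowest Wnt7a, Wnt7b and Ctnnb1 levels. Exosc10 library 3 had the highest Wnt8b and the lowest Wnt7a and Wnt7b levels of its group too, but its Ctnnb1 level was the highest of its group, and its Lef1 and Tcf7l2 levels lay between those of other libraries. The log2 ratio of Wnt7a to Wnt8b therefore ran from -1.004 to 0.324 among the IgG libraries and from 0.12 to 0.79 among the Exosc10 libraries.

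Some reads could come from other genes at the same place, since the strand setting of the counting was not given in the sources used here. In RefSeq (GRCm38.p6), Wnt7a shares 26 bases at its 5′ end with the long noncoding RNA Gm30437, and Wnt7b shares 680 bases with AU022754. Tcf7l2 shares 1407 bases with Gm31734, and Ctnnb1 holds the microRNA gene Mir7090 of 62 bases. No gene of that table overlaps Lef1, Axin2 or Wnt8b.

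By the measure fixed for likeness, the Pearson correlation of log2 CPM with Ctnnb1 over the 8 libraries, the most similar of 11710 genes with a mean of at least 5 CPM was ENSMUSG00000056076 (r = 0.996). Its mean was 387 ± 34.6 CPM with Exosc10, and 135 ± 28.7 CPM was its IgG mean (SD, n = 4 each). ENSMUSG00000031996 followed (r = 0.994), at 353 ± 18.3 and 232 ± 15.1 CPM (SD, n = 4 each). The 8 libraries fall into 2 pull-downs, so a large part of each r is the difference between the groups, and the values are a description. None of the other 6 Wnt transcripts was among these 2. With only 2 of 11710 genes kept, that does not show that they are unlike Ctnnb1.

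**Figure D5:**
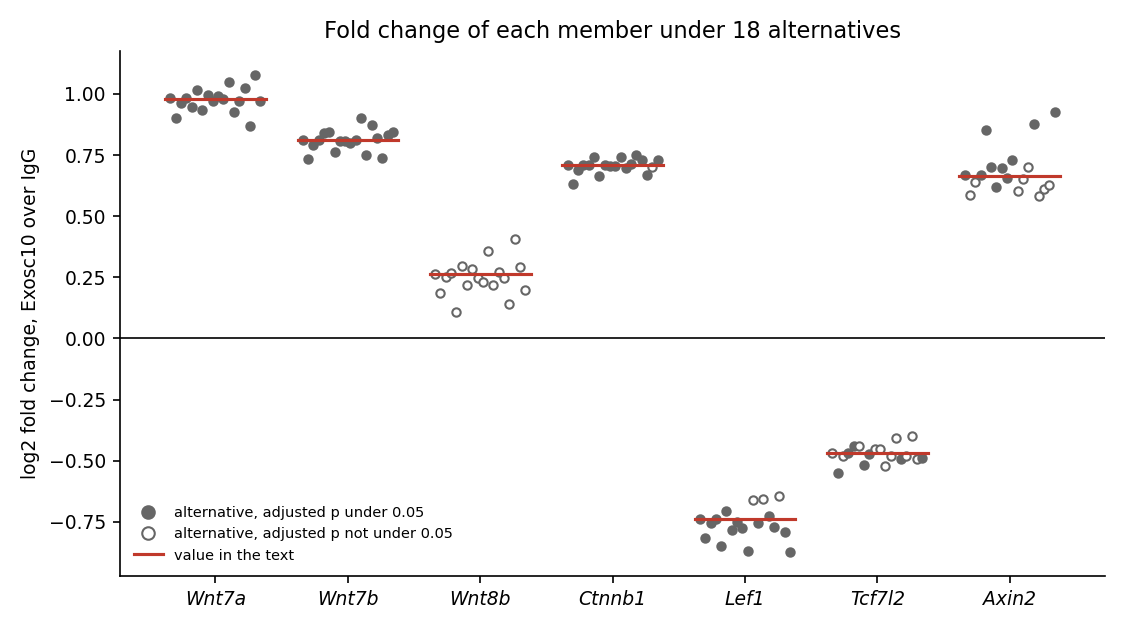
Log2 fold change, Exosc10 over IgG (vertical axis), of each transcript as given in the text (red line) and under 18 other ways of processing the counts (points, filled where the adjusted p was under 0.05). No transcript crosses 0; the points of Wnt7a and Wnt7b are all filled, those of Wnt8b all open, and those of Ctnnb1, Lef1, Tcf7l2 and Axin2 mixed.

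Under the 18 alternatives each of the 7 transcripts kept its direction. Wnt7a ranged from 0.87 to 1.08 and Wnt7b from 0.73 to 0.90 on the log2 scale, and both were called in all 18. Ctnnb1, from 0.63 to 0.75, was called in 17, Lef1, from -0.87 to -0.65, in 15 and Axin2, from 0.58 to 0.93, in 10. Wnt8b, from 0.11 to 0.41, was called in none of them. Tcf7l2, from -0.55 to -0.40, was called in 7.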

How the data were processed

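The authors deposited one file per library with a read count for each of 54838 Ensembl gene IDs, without normalization. The submitters' processing notes name STAR 2.5.2a, bcl2fastq 2.17.1.14, the counter featureCounts 1.5.0-p1 and build mm10. For annotation release, strand setting and multimapping the sources used here give nothing. Groups and numbers came from the sample titles. The files hold no symbols. The 7 IDs were named by the list that selected them, and 0 IDs could be matched to the RefSeq table, which gave positions by symbol. The wider pathway lists and cell type markers were therefore not analysed here. The members and lists were chosen with earlier results of these data known. All 7 members were named.

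Counts were tested with edgeR 4.0.16 (R 4.3.3): filterByExpr (minimum count 10, total 15), TMM, a quasi-likelihood F-test without covariates, and Benjamini-Hochberg adjustment over all 16716 genes, read at 0.05. The SE is the log2 fold change divided by the square root of F. Log2 CPM used a prior count of 2, and ratios of counts a pseudocount of 0.5. Alternatives were DESeq2 1.42.0, limma-voom (limma 3.58.1) with sample weights, 3 other scalings, 2 other filters, thinning, the replicate number as a block, and leaving out libraries.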

Additional observations from a re-analysis of the deposited data

Results flagged for a closer look

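The 14 groups of 4 CPM values (7 transcripts, each in both pull-downs) were examined for a library far from the others. In Tcf7l2 with IgG, library 3, at 51.0 CPM, was separated from the next library, at 43.5 CPM, by 0.833 of the range of the group, just above Dixon's critical value of 0.829 for 4 samples. Chance alone flags about 1 in 20 groups. Without that library the log2 fold change of Tcf7l2 was -0.40 (edgeR adjusted p = 0.190), in the same direction. The same library had the highest Lef1 and Wnt8b levels of its group. Axin2 in IgG library 1, at 90.2 CPM, fell just short of the critical value, at 0.824.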

How the results depend on the processing

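Without 1 library at a time, the log2 fold change ran from 0.87 to 1.08 for Wnt7a, 0.74 to 0.90 for Wnt7b, 0.14 to 0.41 for Wnt8b, 0.67 to 0.75 for Ctnnb1, -0.87 to -0.65 for Lef1, -0.52 to -0.40 for Tcf7l2 and 0.58 to 0.88 for Axin2. Over all genes it gave 880 to 4046 calls, 588 to 2218 higher and 261 to 1828 lower, and 10 to 13 member pairs without overlap. Removing a library cannot make groups that lie apart overlap. The number of pairs could therefore not fall below the 10 found with all libraries. Tcf7l2 passed with the upper quartile (-0.55), DESeq2 (-0.47), limma-voom (-0.44), at least 5 CPM (-0.52) and without both libraries numbered 1 (-0.49). Axin2 did not pass with the upper quartile (0.59) or library totals (0.64). All-gene calls moved with DESeq2 (1522 lower), limma-voom (6374, of which 3363 higher and 3011 lower) and without both libraries numbered 1 (5463, of which 2908 and 2555). The upper quartile turned the balance, to 1025 higher and 1369 lower against 1324 and 973. The cause was not tested.

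Between same-numbered libraries, deviations from the group mean correlated at 0.34, 0.095, 0.34 and 0.22 across genes. One is under 0.1, so they were not paired, although each of the 4 Exosc10 libraries correlated best with the IgG library that shares its number. A replicate block in edgeR gave 4495 calls (2489 higher, 2006 lower), and Tcf7l2 was called (-0.47, edgeR adjusted p = 0.0230); no other member's call changed. Within the numbers, 14 of 21 pairs differed in 1 direction in all 4, where the smallest exact sign-flip permutation p is 0.125. Without 1 library the ratios were checked for overlap only and were not tested.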
